A study of Mus musculus with 47 samples.

Results

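Arginine is taken up, made and spent by a small set of enzymes and transporters, and 8 of their genes were followed here: Slc7a2, Slc7a1, Arg1, Arg2, Nos2, Ass1, Asl and Odc1. They are 8 of the 56748 genes of the count table, taken by name from the mouse annotation, and each matched a single row. The set was built around Slc7a2, which was chosen on its difference between m.12,436 60% tumors and both other tumor groups. Its values between the tumor groups are therefore given as a description with no test, while the other 7 members carry one.

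The study asked how truncating mutations of Mt-Nd5, a mitochondrial gene for a subunit of respiratory complex I, alter melanoma cells and the tumors they form. B78-D14 cells, an amelanotic mouse melanoma line derived from B16 and lacking Cdkn2a, were edited in their mitochondrial DNA with a cytosine base editor, so that about 40% or 60% of the copies carried m.12,436G>A, or about 60% carried m.11,944G>A. Wild-type cells of the same line served as controls, in culture and in mice. The edited cells were sorted populations of 1 line, obtained after 1 or more rounds of transfection, and all of them descend from the same Cdkn2a-deficient parent.

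Gene counts from 18 tumors and 8 cultures were used. The tumors were untreated pieces of subcutaneous grafts in immunocompetent C57BL/6 males: 4 control tumors, 7 m.12,436 40% tumors and 7 m.12,436 60% tumors. The cultures were 4 of control cells and 4 of m.11,944 60% cells. Totals ran from 16475735 to 31218475 counts in tumors and from 25249060 to 36173502 in cultures. Levels are given as CPM, edgeR's normalised count of a gene relative to the total of its library, scaled within the tumors and, separately, within the cultures, so CPM values of tumors and cultures are on different scales. Comparisons used edgeR's quasi-likelihood test with p values adjusted over all genes by Benjamini-Hochberg, and a gene passed at an adjusted p under 0.1.

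Cells import arginine mostly through the cationic amino acid transporters of the SLC7 family. Inside, arginase splits it into ornithine and urea, nitric oxide synthase turns it into nitric oxide and citrulline, and citrulline can be rebuilt into arginine by argininosuccinate synthase and lyase. In tumors, macrophages and other myeloid cells are well known for inducible arginase and nitric oxide synthase, and T cells depend on arginine supply, so these genes are often read as a feature of the infiltrate as much as of the cancer cells. In a bulk piece of tumor, fewer cells of a type and less RNA per cell cannot be told apart.

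The labelled tissue was checked first. Ptprc, the pan-leukocyte gene CD45, held 1334 to 4410 counts in every tumor and at most 1 count in any culture. Of the melanocyte markers, Mitf was present in cultures (at over 1 CPM on average in both groups), while Tyr had no count in any culture and Dct, Sox10, Mlana, Pmel and Tyrp1 averaged under 1 CPM in both groups of cultures. Control tumor 3 stood apart: its 7 melanocyte markers summed to 66.2 CPM, against 15.2 to 28.1 CPM in the other tumors. Skeletal muscle genes varied from 2.28 to 233 CPM in sum between tumors.

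**Figure D1:**
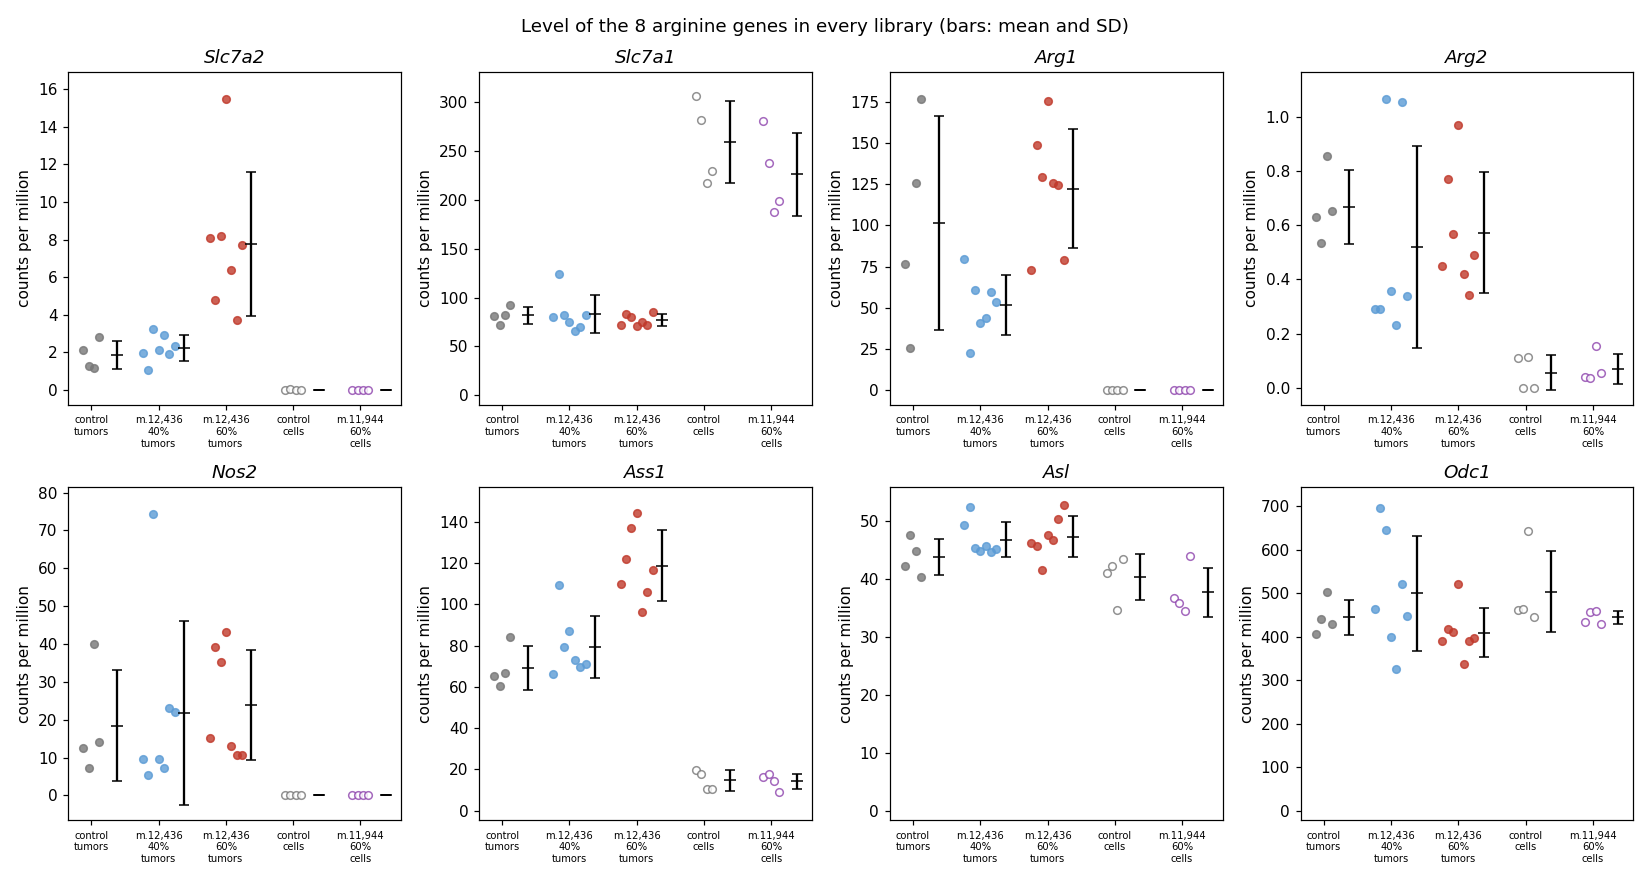
CPM of each gene (vertical axis) in every library of the 5 groups, with the mean and SD beside the points. Slc7a2 and Ass1 lie higher in all 7 m.12,436 60% tumors than in all 4 control tumors, and Slc7a2, Arg1, Arg2 and Nos2 lie at or near 0 in cultures.

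Slc7a2 encodes CAT2, a cationic amino acid transporter that activated macrophages and hepatocytes use, and it lies on chromosome 8 of GRCm39 (chr8:41315431-41375345, plus strand, a protein-coding gene that no other annotated gene overlaps). Control tumors 1 to 4 held 2.11, 1.30, 1.19 and 2.80 CPM, from 36 to 60 counts each. The m.12,436 40% tumors held from 1.07 to 3.24 CPM with a median of 2.13, and the m.12,436 60% tumors from 3.72 to 15.5 CPM with a median of 7.69. All 7 of the 60% tumors therefore lay above every other tumor, which is what the gene was chosen on, and the 40% tumors overlapped the controls.

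On the log2 scale Slc7a2 was 2.09 (standard error 0.37) above control tumors in the 60% tumors and 1.79 (standard error 0.29) above the 40% tumors. The highest value, 15.5 CPM, came from 60% tumor 4. Without it the differences were 1.82 and 1.53. Without control tumor 3 the difference from control tumors was 1.93. In the 40% tumors Slc7a2 was 0.30 (standard error 0.36) above control tumors. The values of both groups entered the choice of the gene, so this difference too is a description with no test.

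Slc7a1 encodes CAT1, the transporter that supplies arginine to most dividing cells (chr5:148264220-148336848, minus strand). It held 81.1, 71.9, 82.1 and 92.7 CPM in control tumors 1 to 4. The 40% tumors ranged from 65.7 to 125 CPM with a median of 79.7, and the 60% tumors from 71.3 to 85.4 CPM with a median of 74.7. The 3 groups overlapped, and the log2 differences were −0.09 (standard error 0.13, adjusted p = 0.767) between 60% and control tumors, −0.10 (standard error 0.11, adjusted p = 0.714) between 60% and 40% tumors, and 0.01 (standard error 0.13, adjusted p = 0.997) between 40% and control tumors. The highest value, 125 CPM, was that of 40% tumor 2, which also had the highest Ass1 and Odc1 of its group.

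Per kilobase of exon, a scale that allows levels of different genes to be compared, Slc7a1 was the more abundant of the transporters throughout. Of the summed level of both, Slc7a2 made up 2.52% ± 0.799 (SD, n = 4) in control tumors, 3.24% ± 1.25 (SD, n = 7) in 40% tumors and 10.4% ± 4.83 (SD, n = 7) in 60% tumors, up to 20.2% in 60% tumor 4. These shares use the Slc7a2 values that chose the gene.

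Of the 7 members with a test between the 60% tumors and the other groups, Ass1 passed. It encodes argininosuccinate synthase, which joins citrulline and aspartate and is the limiting step of arginine synthesis outside the liver (chr2:31352181-31410862, plus strand). Control tumors 1 to 4 held 65.5, 60.2, 66.7 and 84.3 CPM. The 40% tumors ranged from 66.0 to 110 CPM with a median of 72.9, and the 60% tumors from 96.2 to 144 CPM with a median of 116. Every 60% tumor lay above every control tumor, and 5 of the 7 lay above every 40% tumor.

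Ass1 rose by 0.78 on the log2 scale (standard error 0.14, adjusted p = 0.00922) from control to 60% tumors, and was 0.58 higher (standard error 0.11, adjusted p = 0.0182) in 60% than in 40% tumors. Between 40% and control tumors it differed by 0.20 (standard error 0.13, adjusted p = 0.931). Its adjusted p stayed between 0.00535 and 0.0513 when each of the 11 libraries of the first comparison was left out, and the largest was the one without control tumor 3. In the second comparison the range over 14 libraries was 0.00183 to 0.0552.

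The sequence before the start of Ass1 is shown because Ass1 is the member with a tested change in tumors. It covers 250 bases upstream of the RefSeq start in build GRCm38.p6 (chr2:31470020-31470269, plus strand), a different build from that of the counts, so these coordinates are not to be set against the others. Capitals mark the motifs found, on either strand.
Ass1 promoter: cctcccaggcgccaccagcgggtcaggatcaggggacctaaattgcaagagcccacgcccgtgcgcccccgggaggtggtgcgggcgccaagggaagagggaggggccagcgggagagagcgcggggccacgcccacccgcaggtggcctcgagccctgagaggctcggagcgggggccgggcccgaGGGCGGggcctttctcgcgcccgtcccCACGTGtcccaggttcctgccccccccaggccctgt
The Ass1 stretch is 75.6% G and C, against a median of 52.4% over all promoters in the RefSeq table. It holds a GC box (GGGCGG), which 32.7% of the 32851 promoters have in the same window, and an E-box (CACGTG), which 6.02% have. The first base of the E-box lies 36 bases before the start. A TATA box (TATAAA, in 12.4%), an AP-1 motif (TGANTCA, in 6.75%), a GAS motif of STAT factors (TTCNNNGAA, in 7.02%) and an interferon response core (GAAANNGAA, in 7.13%) were searched for too, and these letters are not in the window. Of the 8 members, 3 had an entry in the promoter table: Ass1, Slc7a1 and Odc1. The members Slc7a2, Arg1, Arg2, Nos2 and Asl had none.

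Asl encodes argininosuccinate lyase, the next step, which releases arginine and fumarate (chr5:130040099-130058088, minus strand). Its SD was the smallest of the set relative to its mean in each tumor group. It held 42.3, 47.7, 45.0 and 40.4 CPM in control tumors 1 to 4, from 44.7 to 52.5 CPM (median 45.4) in 40% tumors and from 41.7 to 52.8 CPM (median 46.8) in 60% tumors. The groups overlapped, and the log2 difference between 60% and control tumors was 0.11 (standard error 0.07, adjusted p = 0.425), that between 60% and 40% tumors 0.01 (standard error 0.06, adjusted p = 0.941). Ass1 and Asl catalyse consecutive steps, and of the pair Ass1 passed while Asl did not. Whether their changes differ was not tested.

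Arg1 encodes the cytosolic arginase, abundant in liver and in tumor-associated myeloid cells (chr10:24791118-24803817, minus strand). It held 76.5, 25.6, 126 and 177 CPM in control tumors 1 to 4, from 22.5 to 79.8 CPM (median 53.4) in 40% tumors and from 73.1 to 175 CPM (median 126) in 60% tumors. The control tumors alone spanned almost the range of all tumors. Of the 60% tumors, 5 of 7 lay above every 40% tumor.

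The log2 difference of Arg1 between 60% and 40% tumors was 1.24 (standard error 0.34), with an adjusted p of 0.108 that missed the threshold. It passed with limma-voom (adjusted p = 0.0958), with DESeq2 (adjusted p = 0.0220), with edgeR on these 2 groups alone (adjusted p = 0.0371) and with edgeR on genes with at least 10 counts in every tumor (adjusted p = 0.0926). Leaving out each of the 14 tumors gave adjusted p values of 0.117 to 0.192. Between 60% and control tumors the difference was 0.28 (standard error 0.40, adjusted p = 0.775), and between 40% and control tumors −0.97 (standard error 0.39, adjusted p = 0.924). With single libraries left out these ran from −0.04 to 0.71 and from −1.28 to −0.54.

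Arg2, the mitochondrial arginase (chr12:79177524-79203075, plus strand), was at 1.07 CPM or less in every tumor, from 6 to 30 counts. Its control tumors held 0.629, 0.533, 0.856 and 0.653 CPM. Its log2 difference between 60% and control tumors was −0.22 (standard error 0.40, adjusted p = 0.823) and did not pass. Arg2 overlaps Vti1b on the opposite strand, and the strand setting of the counting was not given in the sources used here, so reads of the shared stretch cannot be told apart. The same holds for Arg1 and Slc7a1, which overlap the annotated genes Gm36172 and Gm57292 on the opposite strand. Odc1 overlaps the annotated gene Gm22748 on the same strand, which no strand setting would separate.

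Nos2 encodes the inducible nitric oxide synthase of activated macrophages (chr11:78811613-78851080, plus strand). It held 12.6, 7.16, 40.1 and 14.1 CPM in control tumors 1 to 4, from 5.48 to 74.5 CPM (median 9.66) in 40% tumors and from 10.6 to 43.1 CPM (median 15.1) in 60% tumors. The spread within each group was wider than any difference between groups. The log2 differences were 0.36 (standard error 0.69, adjusted p = 0.836) for 60% against control tumors and 0.13 (standard error 0.58, adjusted p = 0.951) for 60% against 40% tumors. With single libraries left out they ran from 0.10 to 1.10 and from −0.08 to 0.88.

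Nos2 and Arg1 compete for the same substrate, and their balance was taken as the log2 ratio of their counts, each plus 0.5. The ratio was −2.43 ± 0.908 (SD, n = 4) in control tumors, −1.72 ± 1.09 (SD, n = 7) in 40% tumors and −2.54 ± 0.684 (SD, n = 7) in 60% tumors. Arg1 had more counts than Nos2 in each tumor except 40% tumor 3, where the ratio was 0.30. The 60% tumors differed from the 40% tumors by −0.82 (exact two-sided permutation p = 0.115, adjusted over 3 comparisons 0.344), and neither group differed from the controls beyond the spread (exact permutation p = 0.836 and 0.306, adjusted 0.836 and 0.459). With single libraries left out, the difference of 60% from 40% tumors ran from −1.04 to −0.48. That of 60% from control tumors ran from −0.51 to 0.15. The smallest p these designs allow is 0.000583 for 7 against 7 and 0.00303 for 7 against 4.

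Odc1 encodes ornithine decarboxylase, the first step from ornithine to the polyamines (chr12:17594383-17601507, plus strand), and had the highest level of the set. It held 407, 440, 502 and 430 CPM in control tumors 1 to 4, from 326 to 697 CPM (median 464) in 40% tumors and from 336 to 521 CPM (median 398) in 60% tumors. The groups overlapped. The log2 difference between 60% and control tumors was −0.12 (standard error 0.16, adjusted p = 0.750) and between 60% and 40% tumors −0.29 (standard error 0.14, adjusted p = 0.350).

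**Figure D2:**
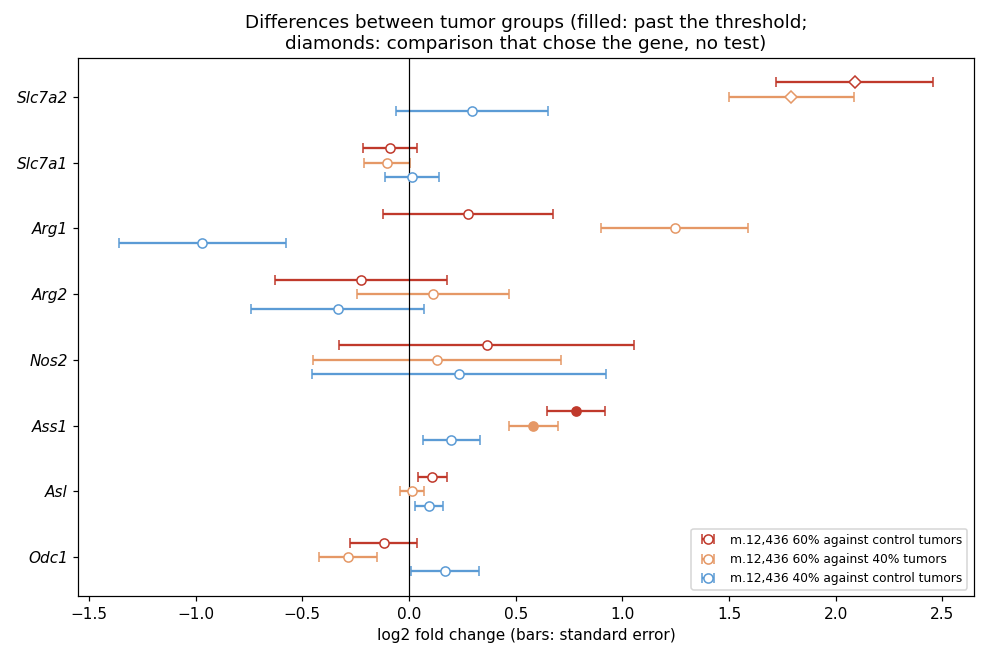
Log2 fold changes (horizontal axis) of the 8 genes in the 3 comparisons between tumor groups, with standard errors as bars. Ass1 is at 0.78 and 0.58 in the comparisons with m.12,436 60% tumors and both points are filled. Arg1 is at 1.24 against 40% tumors with an open point. The diamonds and the open circle of Slc7a2 are given without a test.

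Counted over the 7 members other than Slc7a2, 1 passed between 60% and control tumors and the same gene, Ass1, between 60% and 40% tumors. Over all 16213 genes tested, 374 (2.31%) and 293 (1.81%) passed. The first count was 66 without control tumor 3 and 724 without control tumor 4. Groups did not overlap in 1 of the 7 between 60% and control tumors, against 4.07% of all genes, and in 0 of the 7 between 60% and 40% tumors, against 0.623%. Between 40% and control tumors 0 of the 7 passed with edgeR, with limma-voom or with DESeq2. Over all genes in that comparison 0 of 16213 (0%) passed with edgeR, where 825 had an unadjusted p under 0.05, and 0 passed with limma-voom and 5 with DESeq2. Among the 7 members, Arg1 alone had an unadjusted p under 0.05 there. Ordered by level per kilobase in control tumors, the members ran from Odc1 (78.5 CPM per kilobase), Arg1 (31.6) and Ass1 (18.5) through Slc7a1 (6.95), Asl (6.58) and Nos2 (4.16) to Arg2 (0.459) and Slc7a2 (0.183). The SDs of Arg1 (20.3) and Ass1 (2.80) overlapped, as did those of Slc7a1, Asl and Nos2.

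Leukocyte genes were compared between the same tumors. Ptprc was at 111.7 CPM in 60% tumors, 79.7 CPM in 40% tumors and 73.0 CPM in control tumors on average, log2 differences of 0.61 (standard error 0.19, adjusted p = 0.135) and 0.49 (standard error 0.16, adjusted p = 0.169) that did not pass. The 7 T and NK cell genes summed to 9.34 to 53.5 CPM in 60% tumors, 9.17 to 21.7 CPM in 40% tumors and 8.69 to 29.9 CPM in control tumors, and 0 of the 7 passed in either comparison with edgeR (unadjusted p under 0.05 in 0 of them against control and in 4 against 40% tumors). Of 9 macrophage genes, 0 passed with edgeR between 60% and control tumors. An unadjusted p under 0.05 was held by 3, Csf1r (log2 difference 0.32) and Fcgr1 (0.51) higher and Mrc1 (−0.79) lower. Between 60% and 40% tumors Lyz2 alone passed, 0.52 higher (adjusted p = 0.0744), and Mrc1 was at −0.62. The sums of the macrophage genes spanned 1834 to 2992 CPM, 1745 to 2367 CPM and 2211 to 2367 CPM in 60%, 40% and control tumors. Of 5 neutrophil genes tested, 0 passed in either comparison with edgeR (unadjusted p under 0.05 in 1 against control, Mmp8 at −1.02, and in 0 against 40% tumors).

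Expressed per 100 Ptprc counts, Slc7a2 stood at 4.35 to 12.2 (median 6.20) in 60% tumors, 1.44 to 4.02 (median 2.76) in 40% tumors and 1.36 to 3.64 (median 2.71) in control tumors, values that describe the gene in the comparisons it was chosen on. The difference of its mean log2 levels went from 2.03 in CPM to 1.42 per Ptprc count against control tumors, and from 1.74 to 1.27 against 40% tumors. Ass1 stood at 75.6 to 145 (median 114), 83.7 to 147 (median 91.4) and 62.9 to 131 (median 103), and on this scale its groups overlapped. The difference of the mean log2 levels of Ass1 between 60% and control tumors was 0.17 per Ptprc count, against 0.78 in CPM. Division by Ptprc lowers this difference by the same amount for every gene, so the shift says nothing about Ass1 or Slc7a2 in particular. In the same comparison Arg1 went from 0.53 to −0.08 and Nos2 from 0.42 to −0.19. Against 40% tumors Arg1 went from 1.28 to 0.80 and Nos2 from 0.46 to −0.01. The part of infiltrating cells in the higher Ass1 and Slc7a2 was not tested.

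The genes whose level followed Slc7a2 most closely within the groups were sought next. Group means were subtracted and Pearson's r with Slc7a2 was taken over the 18 tumors for 12316 genes of sufficient level, as a description. The 8 closest were Irf2 (r = 0.80), Usp38 (0.71), Irf1 (0.71), Plaat3 (0.70), Cd8a (0.70), Gsap (0.69), the long non-coding RNA 4933412E12Rik (0.69) and Cd274 (0.69). Irf1 and Irf2 are interferon regulatory factors, Cd8a marks cytotoxic T cells and Cd274 encodes PD-L1. Irf2 and Usp38 lie on chromosome 8, as Slc7a2 does. Without the 2 tumors farthest from the median (60% tumor 4 and 40% tumor 2), r was 0.69 for Irf2, 0.64 for Irf1, 0.70 for Cd8a and 0.52 for Cd274. Of the 11 marker lists, taken as mean log2 levels in the same way, that of T and NK cells had an r of 0.53 with Slc7a2. The others were Ptprc 0.38, skeletal muscle 0.33, fibroblasts 0.33, neutrophils 0.18, macrophages 0.03 and mast cells 0.00. Keratinocytes were at −0.05, adipocytes −0.08, melanocytes −0.37 and endothelial cells −0.62. Without the same 2 tumors T and NK cells were at 0.43, Ptprc 0.37, skeletal muscle 0.23, fibroblasts −0.02, melanocytes −0.52 and endothelial cells −0.54. Tumor pieces, depth and cell makeup are shared by all genes in such a comparison.

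Of the members, Arg1 (r = 0.38), Nos2 (0.37), Arg2 (0.33) and Ass1 (0.16) had a positive r with Slc7a2, while Asl (−0.50), Slc7a1 (−0.32) and Odc1 (−0.09) had a negative one. Without the same 2 tumors these became 0.16, 0.15, 0.10, 0.41, −0.50, 0.14 and −0.10, so that of Slc7a1 changed sign and Asl held its value. The highest r between any 2 members was that of Nos2 with Arg2 (0.84, Spearman's rho 0.85), followed by Slc7a1 with Ass1 (0.65, rho 0.56) and Nos2 with Arg1 (0.57, rho 0.71). Arg2 had few counts, so its r rests on small numbers.

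**Figure D3:**
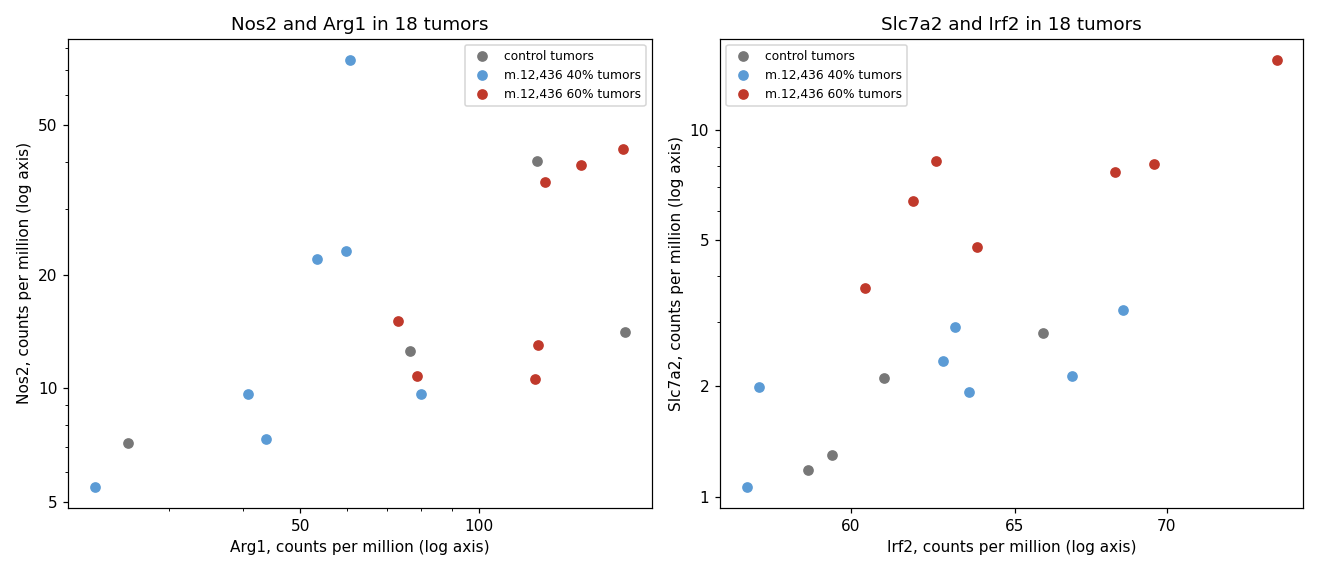
Left, Nos2 against Arg1, and right, Slc7a2 against Irf2, in CPM on log axes, 1 point per tumor coloured by group. The 60% tumors lie from 73.1 CPM of Arg1 upward, as do control tumors 1, 3 and 4 (76.5, 126 and 177 CPM) and 40% tumor 1 (79.8 CPM). The highest Slc7a2 (15.5 CPM) is that of 60% tumor 4, at the highest Irf2 (73.9 CPM).

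Beyond the members, 59 further genes of arginine transport and metabolism were followed, of which 50 had enough counts to be tested in tumors. Between 60% and control tumors 0 rose and 3 fell, beside 2.31% of all genes called. Gamt, which makes creatine from the arginine product guanidinoacetate, stood at 24.0 ± 2.44 CPM (SD, n = 4) in control tumors and at 17.7 ± 1.34 CPM (SD, n = 7) in 60% tumors, a log2 difference of −0.44 (standard error 0.08, edgeR adjusted p = 0.0136). Slc25a29, a mitochondrial carrier of basic amino acids, stood at 11.8 ± 1.35 CPM in control tumors and at 8.93 ± 1.13 CPM in 60% tumors (SD, same n), a log2 difference of −0.40 (standard error 0.11, adjusted p = 0.0888). Ddah2, listed with enzymes that clear methylarginine inhibitors of nitric oxide synthase, held 30.3 ± 3.82 CPM in control tumors against 21.6 ± 2.17 CPM in 60% tumors (SD, same n), a log2 difference of −0.49 (standard error 0.14, adjusted p = 0.0928).

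Between 60% and 40% tumors 0 of the 50 rose and 2 fell, beside 1.81% of all genes called, Slc25a29 by 0.50 (standard error 0.10, adjusted p = 0.0160) and Ddah2 by 0.48 (standard error 0.12, adjusted p = 0.0674). Both members of this pair were close to the threshold against control tumors. When single libraries of that comparison were left out, Slc25a29 passed in 4 of 11 cases (control tumor 4 or 60% tumor 3, 5 or 6 left out; adjusted p = 0.0742 to 0.237 over all 11) and Ddah2 in 3 of 11 (control tumor 2 or 4 or 60% tumor 5 left out; 0.0606 to 0.310). Against 40% tumors Slc25a29 passed in 14 of 14 cases (0.00870 to 0.0453). Ddah2 passed in 6 of 14 and lost its call without 60% tumor 1, 2, 4 or 7 or 40% tumor 1, 2, 6 or 7 (0.0265 to 0.141 over all 14). Gamt passed in 11 of 11 (0.0120 to 0.0707).

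By role, the genes that passed with edgeR were 1 of 11 transporters (Slc25a29), 1 of 11 of nitric oxide synthesis (Ddah2) and 1 of 3 of creatine synthesis (Gamt), and those of polyamines (14 tested), ornithine and proline (6) and arginine sensing (3) held none. The median log2 difference of the 50 genes was −0.10 between 60% and control tumors and −0.05 between 60% and 40% tumors, where it was −0.00 over all genes in both. Between 40% and control tumors 0 of the 50 passed with edgeR, limma-voom or DESeq2, where 5 had an unadjusted edgeR p under 0.05, with a median of −0.03 against 0.00 over all genes. The smallest unadjusted p values there were those of Gamt (log2 difference −0.32, standard error 0.08, adjusted p = 0.924) and Slc7a7, a light chain that exports cationic amino acids (−0.22, standard error 0.09, adjusted p = 0.924). The urea cycle enzymes that make citrulline in liver were all but absent, with at most 3 counts of Cps1, 2 of Nags and 0 of Otc in any tumor.

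The cultures showed which of the genes the melanoma cells held on their own. Slc7a2 had 1 count in all 8 cultures together, in control culture 2, against 1911 counts in the 18 tumors. Nos2 had 0 counts in all 8 cultures, Arg1 had 5 and Arg2 15. Slc7a1, Ass1, Asl and Odc1 were well counted, and these 4 members could be tested.

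Control tumors and control cells were then fitted together, which puts both on 1 scale. Slc7a2 was 174-fold higher in control tumors (95% interval 30.8 to 6893, counting error only), from 182 counts against 1, and Arg1 3202-fold higher (1095 to 15530), from 10074 counts against 3. Nos2, with 2015 counts against 0, was at least 640.5-fold higher at a floor of 3 counts over the 4 cultures, and the exact 95% lower limit of the same ratio was 520.4. Arg2 was 9.54-fold higher (4.39 to 24.6) on 70 counts against 7. These 4 genes passed the filter on low counts through the tumors alone.

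Of the members counted well in both, Ass1 was 1.97 higher on the log2 scale in control tumors (standard error 0.24, adjusted p = 0.000126), with 62.6 CPM on the joint scale. Slc7a1 differed by −1.93 (standard error 0.15, adjusted p = 7.5e-06), at 74.1 CPM in control tumors against 282 CPM in control cells, and Odc1 by −0.45 (standard error 0.15, adjusted p = 0.0248). Asl differed by −0.15 (standard error 0.11, adjusted p = 0.278), which passed only without control culture 3 (adjusted p = 0.0786). In this comparison 65.2% of the 15047 genes tested passed, so a call is the usual outcome. Tumors and cultures also differ in cell makeup, stroma and handling, whose parts cannot be told apart.

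In cultures, the levels of the 4 counted members overlapped between m.11,944 60% cells and control cells. Slc7a1 was at 306, 282, 217.5 and 229 CPM in control cultures 1 to 4 and at 280.0, 238, 187 and 198 CPM in m.11,944 60% cultures 1 to 4. It was lower in the edited culture of each of the 4 same-numbered pairs, as Odc1 was too. For Slc7a1, cultures 1 and 2 lay above 3 and 4 in both groups. Ass1 was at 19.9, 17.9, 10.4 and 10.6 CPM and at 16.2, 17.6, 14.2 and 9.11 CPM in the same order. Asl was at 41.0, 42.3, 34.7 and 43.6 CPM against 36.7, 35.9, 34.5 and 44.0 CPM, and Odc1 at 461, 464, 643 and 446 CPM against 433, 456, 459 and 430 CPM.

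**Figure D4:**
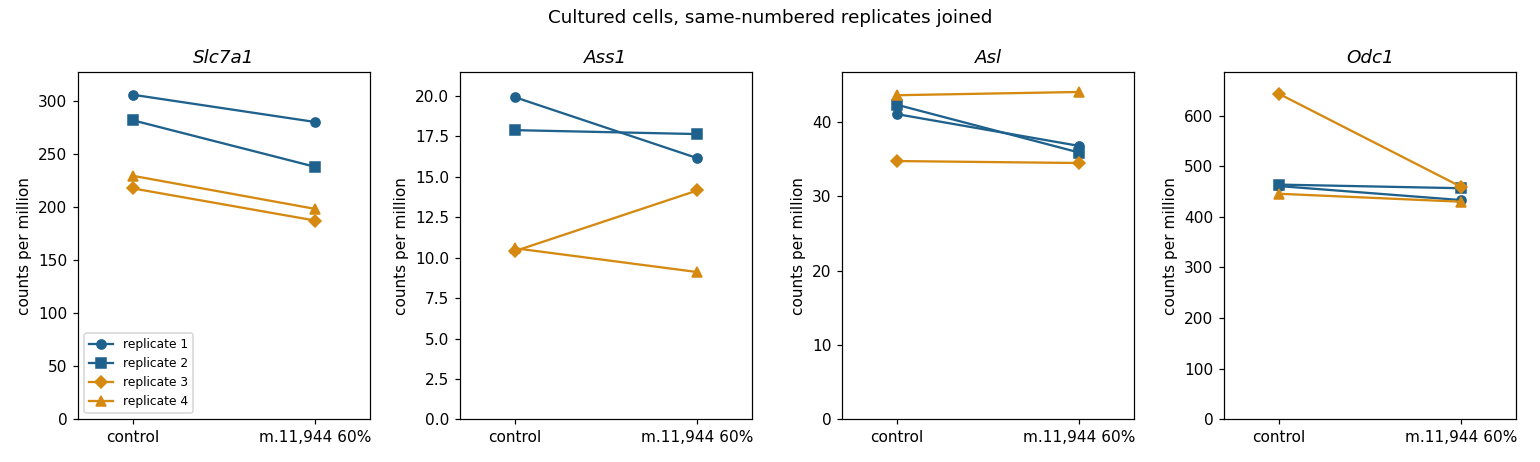
CPM (vertical axis) of the 4 members counted in cultures, with lines joining control and m.11,944 60% cultures of the same number. Slc7a1 and Odc1 fall along all 4 lines, and for Slc7a1 the lines of replicates 1 and 2 lie above those of 3 and 4.

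Without regard to the replicate number, 0 of the 4 members passed with edgeR, limma-voom or DESeq2, with log2 differences of −0.20 for Slc7a1 (standard error 0.17), −0.04 for Ass1 (standard error 0.29), −0.10 for Asl (standard error 0.12) and −0.18 for Odc1 (standard error 0.14), each at an adjusted p of 1.00. Over all 12930 genes 5 (0.0387%) passed, and none of the 4 members had an unadjusted p under 0.05 (the smallest was 0.230, of Odc1). With the replicate number as a block, since same-numbered cultures deviate together, 919 genes (7.11%) passed and the members still did not: Slc7a1 was at −0.20 (standard error 0.06, adjusted p = 0.102), Odc1 at −0.16 (standard error 0.08, adjusted p = 0.283), Asl at −0.10 (standard error 0.08, adjusted p = 0.488) and Ass1 at −0.03 (standard error 0.13, adjusted p = 0.927).

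Of the 59 further genes 45 could be tested in cultures. Without the block 0 passed with edgeR, limma-voom or DESeq2, 4 had an unadjusted edgeR p under 0.05, and the smallest unadjusted p values were those of the creatine transporter gene Slc6a8 (log2 difference −0.39, standard error 0.12, adjusted p = 0.995) and of Dhps (−0.34, standard error 0.12, adjusted p = 1.00). With the replicate block 7 passed, 3 higher and 4 lower, beside 7.11% of all genes (390 higher and 529 lower). Each of the 7 had the same direction in 4 of 4 pairs. Higher were Gchfr, a feedback regulator of GTP cyclohydrolase (0.54, standard error 0.11, adjusted p = 0.0398), the acetyltransferase gene Sat2 (0.91, standard error 0.16, adjusted p = 0.0269) and Gamt (0.68, standard error 0.19, adjusted p = 0.0994). Lower were Slc6a8 (−0.39, standard error 0.10, adjusted p = 0.0643), the spermine oxidase gene Smox (−0.36, standard error 0.08, adjusted p = 0.0449), Dhps, which modifies eIF5A with spermidine (−0.34, standard error 0.08, adjusted p = 0.0628), and the antizyme inhibitor gene Azin1 (−0.23, standard error 0.07, adjusted p = 0.09998). The m.11,944 cultures carry another mutation than the m.12,436 tumors, so the direction of Gamt in cultures and in tumors is not a comparison of the same mutation.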

How the data were processed

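Total RNA of 18 tumor pieces and 8 cell pellets had been extracted and sequenced by a service provider. The authors deposited raw whole-number counts per gene, made with STAR in two-pass mode on GRCm39 and featureCounts with an Ensembl annotation of that build. The table has 47 columns, and 21 that no label ties to a sample were not used, so m.11,944 tumors, m.12,436 cells and further control tumors were not analysed here. Gene names, positions and exon lengths came from GENCODE vM39, whose lengths may differ from those of the annotation used for counting.

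Counts were filtered with filterByExpr, scaled by TMM (trimmed mean of M values) and tested with edgeR 4.0.16 by robust quasi-likelihood, with the 3 tumor groups in 1 fit, the cultures in another and control tumors with control cells in a fit of their own. A gene passes at an adjusted p under 0.1. CPM use TMM library sizes, and log2 CPM for marker lists and correlations a prior count of 2. The 8 members, the 59 further genes by role, the 57 marker genes in 11 lists and the rule for naming were chosen with earlier results of these data known. Named were all members and the 8 genes closest to Slc7a2. Of the further genes, those past the threshold in a comparison between tumor groups or between cultures were named, or else the 2 with the smallest p. Between control tumors and control cells 36 of the 49 further genes tested passed, beside 65.2% of all genes, and were not named for that comparison. Scripts were tested on simulated data. Intervals are exact and cover counting error only.

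The labels number the cultures 1 to 4 in both groups and do not say what a number marks. Deviations from the group means of same-numbered cultures correlated at 0.718 to 0.832 in the 4 pairs, with a mean of −0.264 between other numbers, so the number was taken to pair them. Same-numbered tumors did not deviate together, with a mean of −0.156 between 60% and control tumors. Whether replicates of a culture were separate cultures is not stated, so p values measure the spread between these samples. Alternatives were limma-voom (limma 3.58.1), DESeq2 1.42.0, its size factors, other filters, a replicate block, 2 groups per fit and leaving out each library. The ratio to Ptprc was chosen after seeing the data.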

Additional observations from a re-analysis of the deposited data

Results flagged for a closer look

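In 40 groups of 4 or 7 libraries checked for a library far from the rest, 6 held one, where chance gives about 1 in 20. They were the 8 genes in each group whose libraries were not all at 0, and the log2 ratio of Nos2 to Arg1 in the 3 tumor groups. In a group at or near 0 a single count is enough to be flagged, so that rate does not apply there. Slc7a2 was at 15.5 CPM in m.12,436 60% tumor 4, the next highest of that group being 8.22 CPM, and at 0.0364 CPM in control culture 2, which is the single count of the gene in cultures. Slc7a1 was at 125 CPM in m.12,436 40% tumor 2. Nos2 was at 74.5 CPM in m.12,436 40% tumor 3, where the next highest was 23.2 CPM. Odc1 was at 643 CPM in control culture 3, against 446 to 464 CPM in the other control cultures. Arg2 was at 0.153 CPM in m.11,944 60% culture 3, from 4 counts.

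The difference from control tumors was not the same in 60% and 40% tumors for 3 genes by edgeR's test of 60% against 40% tumors: Ass1 (log2 difference 0.58), Slc25a29 (−0.50) and Ddah2 (−0.48). The controls enter both differences.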

How the results depend on the processing

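Ass1 stayed past the threshold in both comparisons with m.12,436 60% tumors under each alternative with a test. Per Ptprc count, which has no test, its mean log2 differences were 0.17 and 0.12, by a shift that every gene shares. Between 40% and control tumors or between the cultures 0 members passed under any alternative. Between 60% and 40% tumors 2 of the 7 members passed with limma-voom, with DESeq2, with at least 10 counts in every sample and with only the 2 groups compared, Arg1 being the one added. Between control tumors and control cells 3 members passed with at least 10 counts in every sample, since 4 were left to test. Of the further genes, 7 passed between 60% and control tumors with DESeq2, 6 with only the 2 groups compared and 1 without a filter on low counts, and 1 to 5 when single libraries were left out. Between 60% and 40% tumors 1 to 2 passed with single libraries left out. With the replicate block 1 passed between 60% and 40% tumors (same-numbered tumors do not deviate together, mean r = −0.0264, and Slc7a2 stood at 1.72) and 7 between the cultures. The replicate block, whose other values changed no member's call, gave 0.91 for Ass1 between 60% and control tumors (adjusted p = 0.00810). Over all genes, calls between 60% and control tumors were 374 in the fit reported, 1056 with DESeq2 and 943 with only the 2 groups compared. Without control tumor 1, 2, 3 or 4 they were 125, 716, 66 and 724. Between 60% and 40% tumors they were 293, 744 with DESeq2 and 178 without a filter. Between the cultures they were 5, 84 with DESeq2, 919 with the replicate block and 0 with at least 10 counts in every sample. The causes were not tested. Depth limits Slc7a2 (22 to 399 counts a tumor) and Arg2 (6 to 30).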
